A study of Mus musculus with 24 samples.

Results

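The transcripts of 10 genes for heme a synthesis and cytochrome oxidase assembly (Cox10, Cox11, Cox14, Cox15, Cox17, Cox18, Cox19, Surf1, Sco1 and Sco2) were measured in mouse embryonic stem cells in which heme synthesis was inhibited. They were chosen by symbol, without a cut on their values, from the 23762 gene symbols of the count table. Earlier results of these data were known at that time, and all 10 passed the filter on low counts that kept 16067 genes. The study asked what inhibition of heme synthesis does to naive cells and to cells leaving the naive state. ES-E14TG2a mESCs, a single cell line, were sequenced in 24 libraries of 3′ RNA reads, 4 in each of 6 groups. Naive cells were held in N2B27 medium with mLIF, the GSK3 inhibitor CHIR99021 at 3 μM and the MEK inhibitor PD0325901 at 1 μM (2iL). Cells in transition were moved for 48 hr onto fibronectin in N2B27 with activin at 20 ng/ml and bFGF at 12 ng/ml (EpiLC). Each state was also treated for 48 hr with succinylacetone, an inhibitor of the heme synthesis enzyme ALAD, at 0.5 mM (2iL+SA and EpiLC+SA), or with the same dose of succinylacetone (SA) and 10 μM hemin (2iL+SA+H and EpiLC+SA+H). The labels name no genetic change in any group, and the untreated groups received neither agent.

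Cytochrome oxidase, complex IV of the mitochondrial respiratory chain, passes electrons to oxygen through heme a and copper centres. Heme a is made from heme b in the mitochondrion by COX10, which adds a farnesyl tail to give heme o, and by COX15, which oxidises heme o to heme a. COX17 hands copper to SCO1, SCO2 and COX11, which load the copper sites of the COX2 and COX1 subunits, while SURF1, COX14, COX18 and COX19 act at other steps of assembly.

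Promoter windows of 250 bases before to 50 bases after the start were taken from RefSeq on GRCm38.p6 for 8 of the 10 genes (Cox17 and Cox18 had no entry). The letters CCGGAAGT, searched on both strands, stood in 3 of the 8 and in 3.89% of 32851 promoters. The stretches that hold them are printed because one came from a gene whose transcript fell with SA (Cox10), one from a gene whose transcript rose (Cox14) and one from a gene that passed no test (Cox15). Capitals mark the letters searched, and all 3 stretches are written 5′ to 3′ on the strand of the gene.
Cox10: agcgctgggagCCGGAAGTgacaagaggaa
Cox14: agaggtagaagCCGGAAGTtcaaggct
Cox15: cgacgcctgacCCGGAAGTgcttgttcttt
The Cox10 stretch lies at chr11:64079481-64079510 on the minus strand, and its letters begin 27 bases before the start (position -27). The Cox14 stretch lies at chr15:99725641-99725667 on the plus strand, with the letters at position 35 after the start. The Cox15 stretch lies at chr19:43752975-43753004 on the minus strand, with the letters at position 8. A match of letters is a description of the sequence and was tested for no binding. The 32851 promoters were not limited to the genes tested here, and the 3 of 8 was not tested against them.

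Library totals ran from 1857964 to 9069538 counts, and 3 libraries were shallow: 2iL+SA replicate 3 (1857964 counts), EpiLC replicate 3 (2883740) and EpiLC+SA+H replicate 1 (2131987). The pluripotency markers Pou5f1, Sox2, Nanog, Sall4 and Lin28a were detected in every group. The summed level of 5 naive markers was 2505 to 2629 CPM (read counts scaled to a common library size, with the trimmed mean of M values) in 2iL and 54.6 to 394 in EpiLC, and that of 5 primed markers was 67.0 to 106 in 2iL and 1467 to 2319 in EpiLC. The labels therefore matched these markers. Replicates are numbered libraries of one line with no statement of separate cultures, so p-values measure the spread between libraries.

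In cells in transition, SA moved some of the assembly genes up and Cox10 down. In naive cells none of the 10 passed the test, where 0.0249% of all genes were higher and 0.0249% lower. Only Cox10 and Cox14 passed the direct test of a difference in the SA effect between states. With SA, 4 of the 10 transcripts rose (Cox14, Cox17, Cox18 and Cox19) and 1 fell (Cox10) relative to EpiLC, where 12.1% of all 16067 genes tested were higher and 15.8% lower (adjusted p under 0.05, edgeR's quasi-likelihood test with Benjamini-Hochberg adjustment over all genes). The median log2 fold change of the 10 was 0.27, beside -0.00 for all genes. With hemin added, Cox10 rose and Cox14 and Cox19 fell relative to EpiLC+SA, 1 of 10 against a background of 10.5% higher and 2 of 10 against 5.95% lower. Cox11, Cox15, Surf1, Sco1 and Sco2 passed the test in none of the 9 comparisons.

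**Figure D1:**
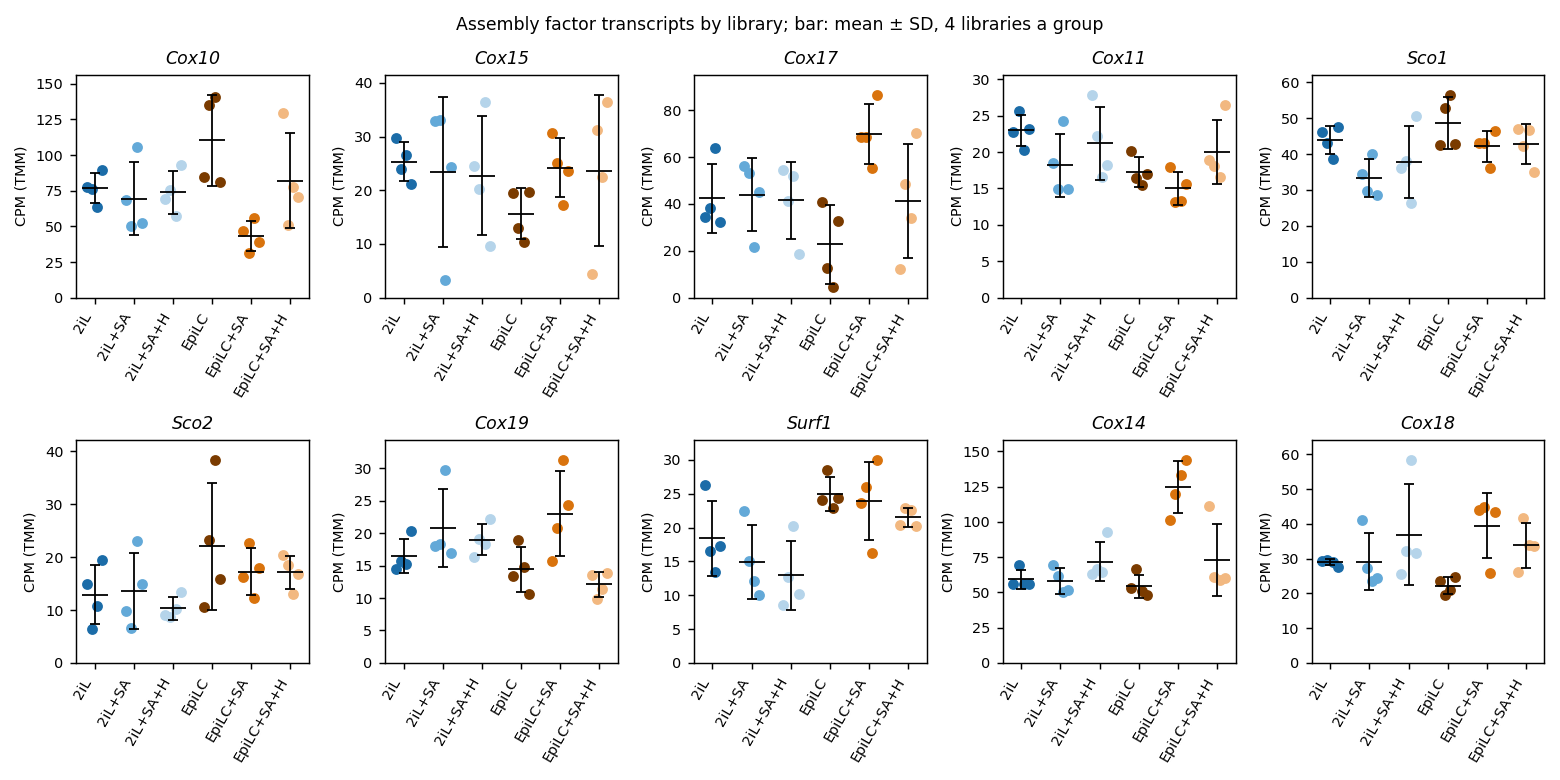
CPM of the 10 transcripts in each library (points) of the 6 groups, with the mean and SD of 4 libraries (bars). Cox14 lay at 101 to 144 CPM in EpiLC+SA and at 48.0 to 66.3 in EpiLC, Cox10 at 31.3 to 56.2 and 81.2 to 141, and Cox15 and Cox17 scattered widely within groups.

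Between the untreated states, 0 of the 10 transcripts passed the test in either direction (EpiLC against 2iL, with an unadjusted p under 0.05 for 0 of them and 0 calls from DESeq2), where 15.0% of genes were higher and 13.4% lower in EpiLC. Percentages of genes, here and below, are adjusted calls from edgeR and not shares by unadjusted p or by DESeq2. Their log2 fold changes ran from -0.85 for Cox17 to 0.74 for Sco2, with a median of -0.16. The libraries of Cox11, Cox15 and Cox18 did not overlap between 2iL and EpiLC, at log2 fold changes of -0.41, -0.67 and -0.38. The share of all genes without overlap was not counted, so this does not set these genes apart.

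In naive cells, 0 of 10 passed the test for 2iL+SA against 2iL (unadjusted p under 0.05 for 1, Sco1 at a log2 fold change of -0.41, and 0 calls from DESeq2), where 0.0249% of genes were higher and 0.0249% lower. For 2iL+SA+H against 2iL+SA, 0 of 10 passed (unadjusted p under 0.05 for 0, and 0 calls from DESeq2) beside 0% of genes in either direction. For 2iL+SA+H against 2iL, 0 of 10 passed (unadjusted p under 0.05 for 0, and 0 calls from DESeq2) beside 0% higher and 0.00622% lower. All 10 transcripts overlapped between the groups in each of these comparisons. The share of all genes that overlapped was not counted, so this does not set the 10 apart.

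Cells in transition with SA and hemin were set against untreated EpiLC, and 0 of 10 passed (unadjusted p under 0.05 for 1, and 0 calls from DESeq2), where 0.0436% of genes were higher and 0.0187% lower. The 1 was Cox18, with a log2 fold change of 0.61 (95% interval 0.12 to 1.11, adjusted p = 0.362 from edgeR) and libraries that did not overlap. The Surf1 libraries did not overlap either, all of them lower with SA and hemin, at a log2 fold change of -0.21. Here too the share of all genes without overlap was not counted. The intervals of the others included 0 and were wide for some, from -0.14 to 1.83 for Cox17 and from -0.98 to 0.11 for Cox10.

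The difference between states was tested directly as the effect of SA in transition minus its effect in 2iL. Cox14 passed as higher and Cox10 as lower, 1 of 10 in each direction, where 5.27% of genes were higher and 9.07% lower. For the effect of hemin on SA-treated cells, Cox14 passed as lower in transition, 1 of 10 beside 1.76% of genes, and 0 of 10 passed as higher beside 4.57% (over both directions 3 had an unadjusted p under 0.05, and DESeq2 called 1). The comparisons of EpiLC+SA with EpiLC and of EpiLC+SA+H with EpiLC+SA share the 4 EpiLC+SA libraries, so opposite directions in them are not independent of each other. EpiLC against 2iL and EpiLC+SA against EpiLC likewise share the 4 EpiLC libraries.

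**Figure D2:**
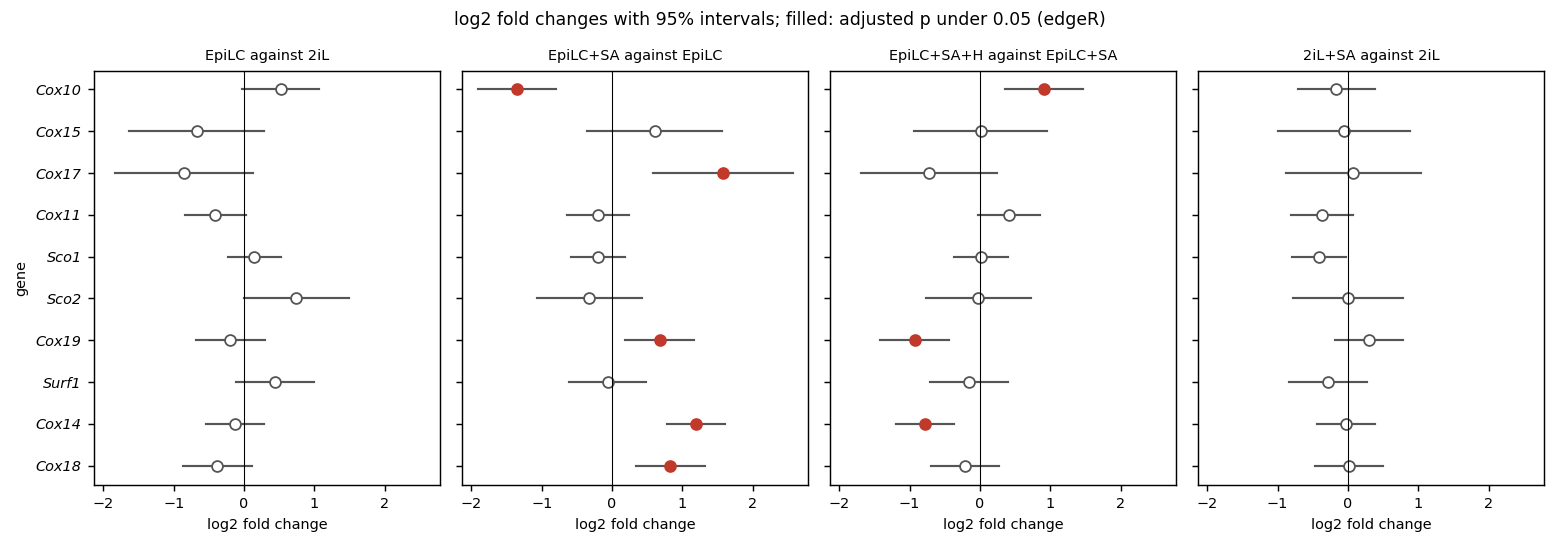
log2 fold change of each transcript (points) with its 95% interval (lines) in 4 comparisons, filled where the adjusted p from edgeR was under 0.05. For EpiLC+SA against EpiLC, Cox10 stood at -1.35 and Cox14, Cox17, Cox18 and Cox19 between 0.68 and 1.58, while no point was filled in EpiLC against 2iL or in 2iL+SA against 2iL.

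Cox10 encodes the farnesyltransferase that makes heme o, and its gene lies on chromosome 11 of GRCm38 from 63962627 to 64079468 (minus strand), with 2 antisense genes inside it away from its 3′ end. Its level in the EpiLC libraries was 84.3, 135, 141 and 81.2 CPM. In EpiLC+SA it was 46.4, 31.3, 56.2 and 39.1 CPM, below every EpiLC library. Cox10 was thus 2.54-fold lower with SA, at 43.2 ± 10.6 CPM against 110.4 ± 31.9 (SD, n = 4; log2 fold change -1.35, standard error 0.27, adjusted p = 0.000608 from edgeR).

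With hemin added, Cox10 was at 129, 50.9, 77.4 and 70.5 CPM, and 1 of these libraries lay within the EpiLC+SA range. The rise over EpiLC+SA was 1.88-fold (log2 fold change 0.91, standard error 0.27, adjusted p = 0.0205 from edgeR). The highest value came from the shallow replicate 1. Without that library alone the log2 fold change was 0.65 and did not pass (adjusted p = 0.0932), and without all 3 shallow libraries it was 0.63 and passed (adjusted p = 0.0298). The call was also lost without EpiLC+SA replicate 2 (adjusted p = 0.0635) or replicate 4 (adjusted p = 0.0555).

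In naive cells Cox10 was at 77.5, 76.3, 63.6 and 89.8 CPM in 2iL, at 68.9, 50.5, 106 and 52.2 in 2iL+SA, and at 68.9, 75.8, 57.3 and 93.0 in 2iL+SA+H. The 3 groups overlapped throughout. The effect of SA on Cox10 was more negative in transition than in 2iL by 1.18 on the log2 scale (-1.18, standard error 0.38, adjusted p = 0.0368 from edgeR). That difference did not pass without 2iL+SA replicate 3 (-0.93, adjusted p = 0.0903) or without all 3 shallow libraries (-0.80, adjusted p = 0.0608), and it was also lost on leaving out singly 2iL replicate 1, 2 or 3, EpiLC replicate 2 or 3, or EpiLC+SA replicate 2 or 4 (-1.18 to -1.07). By mean level the groups ran from EpiLC through EpiLC+SA+H, 2iL, 2iL+SA+H and 2iL+SA to EpiLC+SA, and each group overlapped its neighbour in that order.

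Cox15 encodes the heme a synthase that acts after COX10, and its gene lies on chromosome 19 of GRCm38 from 43733254 to 43753000 (minus strand). Its level was 19.5, 13.0, 10.5 and 19.8 CPM in EpiLC and 30.7, 25.1, 17.3 and 23.6 in EpiLC+SA. The groups overlapped by a single EpiLC+SA library, and the log2 fold change was 0.60 (standard error 0.47, 95% interval -0.36 to 1.57, adjusted p = 0.351 from edgeR). The SA+H libraries spanned 4.36 to 36.5 CPM. The spread of Cox15 between replicates, as the biological coefficient of variation, was 45.6%, beside a median of 30.4% over all genes. The 3′ end of Entpd7, on the opposite strand, overlaps the 3′ end of Cox15, and the strand setting of the counting is not given in the sources used here.

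Cox17 encodes the copper chaperone of the intermembrane space, and its gene lies on chromosome 16 of GRCm38 from 38346991 to 38352763 (plus strand). Gm21987, which has no row in the table, overlaps 5724 bases of it on the same strand, so the counts of Cox17 are uncertain. Its level was 40.8, 12.5, 4.65 and 32.9 CPM in EpiLC. In EpiLC+SA it was 68.5, 68.5, 55.5 and 86.6 CPM, above every EpiLC library. The rise was 2.98-fold (log2 fold change 1.58, standard error 0.48, adjusted p = 0.0172 from edgeR), with a 95% interval from 0.58 to 2.57.

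The call was lost without EpiLC replicate 2 (log2 fold change 1.37, adjusted p = 0.0573) or replicate 3 (1.24, adjusted p = 0.0506), the libraries with the least Cox17. It was kept without all 3 shallow libraries, EpiLC replicate 3 among them (1.26, adjusted p = 0.0169). In EpiLC+SA+H the Cox17 level was 12.1, 48.6, 34.0 and 70.4 CPM, which overlapped both other groups in transition (-0.73 against EpiLC+SA, adjusted p = 0.314 from edgeR). In naive cells it was 34.4, 38.5, 64.1 and 32.5 CPM in 2iL, 56.1, 53.1, 21.5 and 45.2 in 2iL+SA, and 54.6, 41.1, 51.9 and 18.7 in 2iL+SA+H, with full overlap. The difference of the SA effect on Cox17 between states had a 95% interval from 0.12 to 2.88 on the log2 scale and did not pass after adjustment (adjusted p = 0.136 from edgeR).

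The receivers of copper from COX17 gave no call. Cox11, for the chaperone of the COX1 copper site (chromosome 11, from 90638173 to 90644931, plus strand), was at 15.5 to 20.2 CPM in EpiLC and 13.2 to 18.0 in EpiLC+SA (log2 fold change -0.20, 95% interval -0.64 to 0.24). Sco1, one of the chaperones of the COX2 copper site (chromosome 11, from 67052670 to 67067070, plus strand), was at 42.4 to 56.5 and 36.1 to 46.5 CPM (-0.20, 95% interval -0.58 to 0.18). These intervals reach less far from 0 than the changes of Cox10 and Cox14 in the same comparison.

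Sco2, whose product works beside SCO1 (chromosome 15, from 89371637 to 89373846, minus strand), was at 10.6 to 38.3 CPM in EpiLC and 12.2 to 22.8 in EpiLC+SA. Its log2 fold change was -0.32 with a 95% interval from -1.07 to 0.42. It lies over Tymp on the same strand and over Ncaph2 on the other, and Ncaph2 covers its 3′ end, so its counts are uncertain. Cox11 is likewise overlapped at its 3′ end by Tom1l1 on the other strand.

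Cox19 encodes a small twin-cysteine protein of the intermembrane space that in yeast acts with Cox11, and its gene lies on chromosome 5 of GRCm38 from 139336189 to 139351418 (minus strand). Its level was 13.4, 19.0, 14.7 and 10.7 CPM in EpiLC and 15.7, 20.8, 31.2 and 24.3 in EpiLC+SA. The groups overlapped, and the 1.60-fold rise was called at an adjusted p of 0.0344 from edgeR (log2 fold change 0.68, standard error 0.24). The call was lost on leaving out any of EpiLC replicates 1, 3 and 4 or EpiLC+SA replicates 3 and 4, at adjusted p from 0.0627 to 0.146.

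With hemin added, Cox19 was at 13.6, 9.79, 11.3 and 13.8 CPM, below every EpiLC+SA library. It fell relative to EpiLC+SA (log2 fold change -0.93, standard error 0.24, adjusted p = 0.00807 from edgeR), and was the only transcript of the 10 whose libraries did not overlap between these groups. How many of all genes did not overlap there was not counted. Without EpiLC+SA replicate 3 the log2 fold change was -0.71 with an adjusted p of 0.0596. Naive cells had 14.5, 15.7, 15.3 and 20.4 CPM in 2iL, 18.1, 18.3, 29.7 and 16.9 in 2iL+SA, and 16.4, 19.1, 18.3 and 22.1 in 2iL+SA+H.

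Surf1 encodes an assembly factor whose loss causes Leigh syndrome in humans, and its gene lies on chromosome 2 of GRCm38 from 26913381 to 26916530 (minus strand). It was at 22.8 to 28.5 CPM in EpiLC, 16.3 to 30.0 in EpiLC+SA and 20.2 to 22.8 in EpiLC+SA+H. The log2 fold change with SA was -0.06 (95% interval -0.61 to 0.49, adjusted p = 0.896 from edgeR). In 2iL it was at 13.4 to 26.3 CPM, in 2iL+SA at 9.98 to 22.5 and in 2iL+SA+H at 8.51 to 20.2. The largest of its differences, 2iL+SA+H against 2iL, was -0.50 with a 95% interval from -1.06 to 0.05.

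Cox14 encodes a small inner membrane protein that binds newly made COX1 and couples its synthesis to assembly, and its gene lies on chromosome 15 of GRCm38 from 99725618 to 99728136 (plus strand), overlapped by no other gene. Its level was 52.9, 66.3, 50.7 and 48.0 CPM in EpiLC. In EpiLC+SA it was 101, 119.7, 133 and 144 CPM, all above EpiLC. The rise was 2.28-fold, to 124 ± 18.4 from 54.5 ± 8.12 CPM (SD, n = 4; log2 fold change 1.19, standard error 0.20, adjusted p = 0.000100 from edgeR). The longest Cox14 transcript has 723 bases, and the median level of genes with such short transcripts was also higher with SA in transition. The part of that shift in the Cox14 rise was not tested.

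With hemin added, Cox14 was at 111, 61.2, 59.0 and 60.2 CPM. The 3 deeper libraries lay close together and below EpiLC+SA, and the shallow replicate 1 lay among the EpiLC+SA libraries. Cox14 fell 1.72-fold relative to EpiLC+SA (log2 fold change -0.78, standard error 0.20, adjusted p = 0.00742 from edgeR), and without replicate 1 the log2 fold change was -1.02 (adjusted p = 0.000327). Relative to untreated EpiLC it was 0.41, with an interval from -0.01 to 0.82.

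In naive cells Cox14 was at 56.2, 69.4, 55.8 and 55.8 CPM in 2iL, at 69.4, 61.5, 50.1 and 51.4 in 2iL+SA, and at 63.2, 66.9, 64.7 and 92.8 in 2iL+SA+H. The effect of SA was larger in transition than in 2iL by 1.22 on the log2 scale (standard error 0.28, adjusted p = 0.00549 from edgeR). The effect of hemin differed by -1.09 (standard error 0.28, adjusted p = 0.0204 from edgeR), a call lost without 2iL+SA+H replicate 4 (-0.94, adjusted p = 0.0551), EpiLC+SA replicate 4 (-0.97, adjusted p = 0.0670) or EpiLC+SA+H replicate 4 (-0.98, adjusted p = 0.0530). By mean level the groups ran from EpiLC+SA through EpiLC+SA+H, 2iL+SA+H, 2iL and 2iL+SA to EpiLC, and each group overlapped its neighbour in that order.

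Cox14 was called in 4 of the 9 comparisons, more than any other of the 10, and the genes most like it over the 24 libraries were listed as a description. Of 10362 genes compared, the highest Pearson correlations of log2 CPM with Cox14 were those of Mtch2 (r = 0.92), Mien1 (0.90), Atp6v1f (0.88), Pfdn5 (0.88) and mt-Nd4l (0.87). The libraries share groups, so these values are not independent of the group means.

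Cox18 encodes the inner membrane insertase that places part of COX2 across the membrane, and its gene lies on chromosome 5 of GRCm38 from 90214724 to 90224001 (minus strand). Its level was 23.7, 19.4, 20.9 and 24.7 CPM in EpiLC and 44.0, 44.9, 25.8 and 43.6 in EpiLC+SA, with no overlap. The rise was 1.78-fold (log2 fold change 0.83, standard error 0.24, adjusted p = 0.0111 from edgeR), and it passed in every alternative fit, at adjusted p up to 0.0380. With hemin added it was at 26.1, 41.8, 33.8 and 33.6 CPM, within the range of EpiLC+SA (-0.22, adjusted p = 0.581 from edgeR).

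In naive cells Cox18 was at 29.5, 29.6, 29.1 and 27.8 CPM in 2iL, at 41.3, 27.3, 23.7 and 24.3 in 2iL+SA, and at 25.5, 32.2, 58.4 and 31.7 in 2iL+SA+H. The 2iL libraries were the tightest of any group, with an SD of 0.862 CPM. The SA effect differed between states by 0.81 on the log2 scale, which did not pass (adjusted p = 0.104 from edgeR).

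Several of the 10 transcripts were highest or lowest in the library of lowest total in most groups. The library of lowest total in its group had the highest Cox10 in 5 of 6 groups, the highest Sco1 in 5 and the highest Sco2 in 6, and the lowest Cox15 and the lowest Cox17 in 5, with EpiLC+SA the exception for Cox10, Sco1, Cox15 and Cox17. In 2iL+SA replicate 3, for example, Cox15 was at 3.30 CPM (6 counts) beside 24.3 to 33.2 in the other libraries, and Cox10 was at 106 beside 50.5 to 68.9. Over the 24 libraries Cox10 and Cox17 had a Pearson r of -0.86, and Cox15 and Cox17 one of 0.71, in libraries that share depth and group. The share of all genes that stood so in the lowest-total libraries was not counted, and depth was not separated from other differences between libraries. Cox10 and Cox17 were also refitted without the lowest-total library of every group, a setting chosen after these values were seen. In 2iL that library had 6172005 counts beside 6341647 in the next, and EpiLC replicate 2, at 4698873, was kept. The refit therefore does not measure the part of depth in the calls. The SA changes were then -1.08 for Cox10 (adjusted p = 0.000408 from edgeR) and 1.28 for Cox17 (adjusted p = 0.0111), and the Cox10 change with hemin was 0.51 and no longer passed (adjusted p = 0.0855), whereas it passed without the 3 shallow libraries (0.63, adjusted p = 0.0298).

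**Figure D3:**
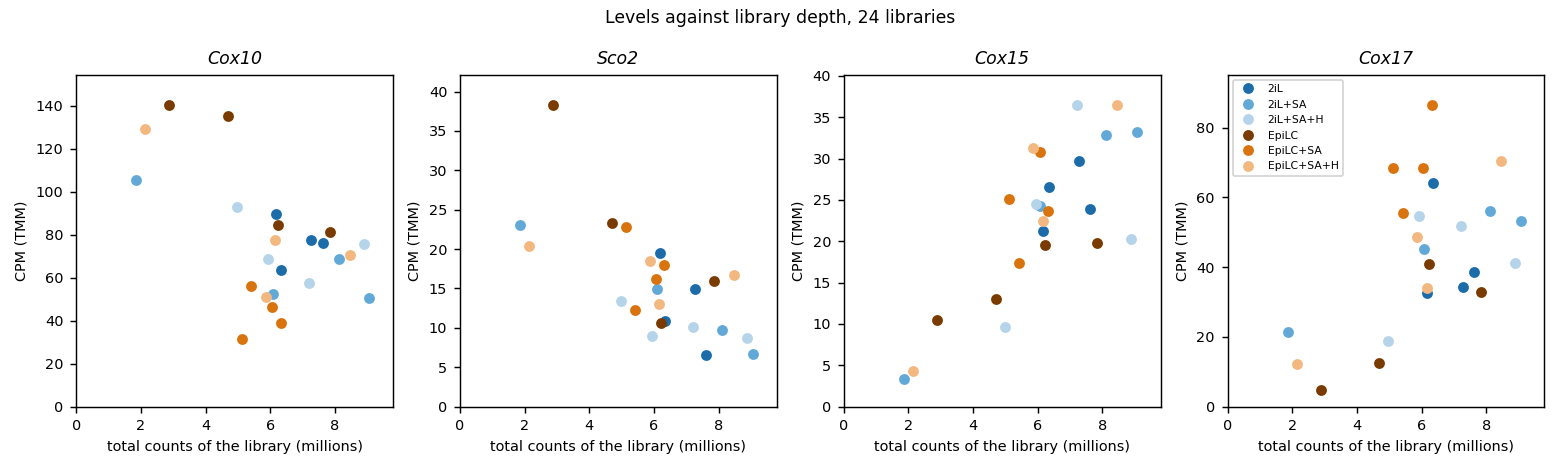
CPM of Cox10, Sco2, Cox15 and Cox17 in each of 24 libraries (points, coloured by group) against the library's total counts. The 3 shallow libraries held 106 to 141 CPM of Cox10 and 3.30 to 10.5 CPM of Cox15.

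Other measures also moved with SA in transition. The difference in median log2 CPM between the genes with the shortest transcripts (815 bases at most) and the longest (6492 bases or more) was -3.13 to -2.68 in EpiLC+SA and -3.63 to -3.42 in EpiLC. The median of the shortest was itself higher in every EpiLC+SA library than in any EpiLC library. Cox14, with a longest transcript of 723 bases, is within the short bound. The longest transcripts of Cox10, Cox17, Cox18 and Cox19 lie between the bounds. The summed naive markers were at 381 to 809 CPM in EpiLC+SA against 54.6 to 394 in EpiLC, and the primed markers at 294 to 886 against 1467 to 2319. In EpiLC+SA+H the naive markers were at 249 to 665 CPM and the primed markers at 610 to 1644. The 5 summed pluripotency markers were at 400 to 717 CPM in EpiLC+SA, 564 to 1442 in EpiLC and 997 to 1288 in EpiLC+SA+H. The summed fibroblast markers, of which 4 of 5 were in the table, were at 9.78 to 17.7 CPM against 1.94 to 14.9, and none of the 4 was at 0 in every library of either group. The part of these in the changes of the 5 called transcripts, or of the related genes described below, was not tested. In bulk RNA, fewer cells with a transcript and less of it per cell cannot be told apart.

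The wider set of complex IV assembly factors held calls in both directions with SA. Of 23 tested factors of 25 listed, 6 rose and 4 fell in EpiLC+SA relative to EpiLC, with a median log2 fold change of 0.21, where 12.1% of all genes were higher and 15.8% lower. Coa7, for a heme-binding assembly factor, fell from 75.1 ± 17.3 to 11.9 ± 6.03 CPM (SD, n = 4; log2 fold change -2.64, adjusted p = 1.09e-07 from edgeR). Taco1, for the translational activator of COX1, fell by 1.85 on the log2 scale from a low level. Pet100 and Cox20, a chaperone of COX2 that works with COX18 and the SCO proteins, rose by 1.74 and 1.69.

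With hemin added, 3 of the 23 rose and 4 fell relative to EpiLC+SA, where 10.5% of all genes were higher and 5.95% lower. Coa7 rose by 2.25 and Taco1 by 1.92, while Cox20 fell by 1.89 and Pet100 by 0.94. Of the redox partners of COX15, Fdxr, the ferredoxin reductase, rose with SA by 0.86 (adjusted p = 0.00681 from edgeR) and fell with hemin by 1.12 (adjusted p = 0.00159), and the ferredoxin gene Fdx2 (in the table as Fdx1l) was at 0.22 and -0.10 and was not called. Hccs, which attaches heme to cytochromes c, was at 0.26 and 0.13 and was not called.

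**Figure D4:**
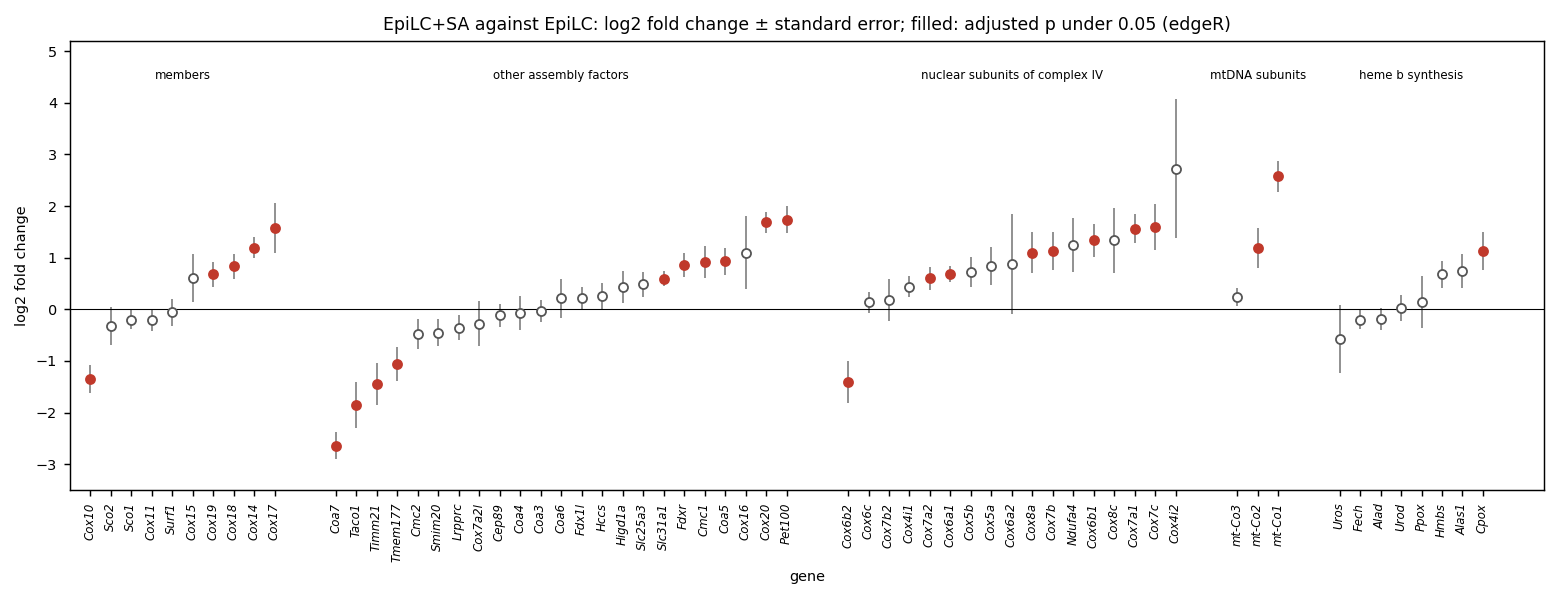
log2 fold change ± standard error in EpiLC+SA against EpiLC of the 10 genes, other assembly factors, nuclear and mitochondrially encoded (mtDNA) subunits of complex IV and heme b enzymes, filled where the adjusted p from edgeR was under 0.05. Cox10 at -1.35 and Coa7 at -2.64 stood lowest in their groups, and mt-Co1 stood at 2.57.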

How the data were processed

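RNA of 24 libraries was sequenced by the authors as QuantSeq 3′ single-end reads of 50 bp. Per the labels and the submitters' processing notes, reads were checked with FastQC 0.11.7, aligned to mm10 with HISAT2, handled with SAMtools 1.5 and counted with HTSeq 2.7.14. Adapters were removed first, and reads with several mapping positions were dropped. The deposited values are raw counts per gene symbol and library. The annotation and strand setting are not given in the sources used here. CPM of single genes were not compared with one another. Marker levels were summed over genes, and medians of genes with short and long transcripts were subtracted within each library.

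Genes were filtered with filterByExpr (minimum count 5), TMM-scaled and tested with edgeR 4.0.16 (robust quasi-likelihood, a single model for the 6 groups, with limma 3.58.1 and R 4.3.3). Benjamini-Hochberg adjustment covered the 16067 genes, with calls at adjusted p under 0.05, in 7 pairwise comparisons and 2 tests of a difference between states. Log2 CPM for correlations used a prior count of 2. The fit was tested on simulated data. Groups were taken from the labels, and 0 pairs of libraries were identical. The alternatives tried were DESeq2 1.42.0, edgeR with DESeq2's size factors, no filter or a minimum count of 10, a replicate block, the compared groups alone, each library left out, and the shallow libraries left out. Leaving out the lowest-total library of every group was added after seeing the data.

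All 10 genes were named in every comparison. Also named were up to 4 genes of smallest adjusted p with SA in each related list, the subunits mt-Co1, mt-Co2 and mt-Co3, Hccs, Fdx2 and Fdxr, and the 5 genes most correlated with the gene called most often (mean of 5 CPM or more). The genes, lists and tests were chosen with earlier results of these data known. Of the 25 other assembly factors, Coa1 and Pet117 were not matched. Gene positions came from the GENCODE annotation of GRCm38 by symbol. Figures were drawn with matplotlib 3.10.9.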

Additional observations from a re-analysis of the deposited data

Results flagged for a closer look

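In 5 of the 60 sets of 4 libraries checked (10 genes in 6 groups), a single library stood apart from the others by more than Dixon's criterion allows, where chance gives about 1 in 20. For Cox14 these were 2iL replicate 2 at 69.4 CPM (the others at 55.8 to 56.2), 2iL+SA+H replicate 4 at 92.8 (63.2 to 66.9) and EpiLC+SA+H replicate 1, a shallow library, at 111 (59.0 to 61.2). For Cox18, EpiLC+SA replicate 3 was at 25.8 CPM, below 43.6 to 44.9. For Cox19, the shallow 2iL+SA replicate 3 was at 29.7 CPM, from 54 counts, above 16.9 to 18.3.

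Effects that differed between cells in transition and naive cells by an interaction test (edgeR's quasi-likelihood test) were those of SA on Cox10 (-1.18 on the log2 scale, adjusted p = 0.0368) and on Cox14 (1.22, adjusted p = 0.00549), and that of hemin on Cox14 (-1.09, adjusted p = 0.0204). The call for SA on Cox10 was lost in 10 of 24 refits, and that for hemin on Cox14 in 3 of 24.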

How the results depend on the processing

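Of 200 refits of the 11 called changes, 173 kept the call and 27 lost it, and 3 changes not called in the fit reported were called in a refit. Of 1600 values in all, 78 turned sign, 0 of them called in either fit, and the largest was then 0.36 in size. Cox10, Cox14 and Cox18 kept their calls for EpiLC+SA against EpiLC under every alternative, as did Cox14 for EpiLC+SA+H against EpiLC+SA and for the SA effect between states. The Cox19 rise with SA was lost with no filter (0.68, adjusted p = 0.0593) and in a fit of the compared groups alone (0.66, adjusted p = 0.105). Why was not tested.

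For the SA effect between states the members called went from 2 to 1 without the 3 shallow libraries and to 1 without the library of lowest total in every group. For the hemin effect between states they went from 1 to 2 without the 3 shallow libraries, where Cox19 was called (-1.05, adjusted p = 0.0305). Leaving out 1 library at a time gave 1 to 3 members for the SA effect between states (Cox18 gained without 2iL+SA replicate 1, at 1.00 and adjusted p = 0.0490), 0 to 1 for the hemin effect, 0 to 1 for EpiLC against 2iL (Sco2 without EpiLC replicate 1, at 0.98 and adjusted p = 0.0478), 3 to 5 for EpiLC+SA against EpiLC (3 without EpiLC replicate 3), and 2 to 3 for EpiLC+SA+H against EpiLC+SA.

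Same-numbered libraries did not all deviate together by more than r = 0.1 in any comparison (r from 0.06 to 0.16 for EpiLC+SA against EpiLC, and from -0.26 to 0.40 over all comparisons). Differently numbered libraries were not compared, so these values cannot exclude pairing. The fit reported did not pair the libraries. With the replicate block, 5 members were called for EpiLC+SA against EpiLC, 3 for EpiLC+SA+H against EpiLC+SA, 2 and 1 for the SA and hemin effects between states, and 0 elsewhere, as without it.

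Counts of all genes called moved by over 1.5 times in some comparisons. For EpiLC+SA+H against EpiLC, 10 became 126 with DESeq2, 0 with the block, 0 in the compared groups alone, 210 without the shallow libraries and 237 without the lowest-total ones. For 2iL+SA against 2iL, 8 became 306, 39, 23 and 105 in the first 4 of these, 5 with DESeq2 size factors and 15 at a minimum count of 10. For 2iL+SA+H against 2iL+SA, 0 became 1 with DESeq2 and 1 without the shallow libraries. For 2iL+SA+H against 2iL, 1 became 6 with DESeq2, 0 in the compared groups alone, 3 without the shallow libraries and 0 without the lowest-total ones. For the hemin effect between states, 1017 became 1703 with DESeq2 and 2083 without the shallow libraries. Cox15 and Cox17 had the fewest counts of the 10 in a single library, at 6 and 12. The part of depth in these values was not tested.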

Other observations

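The subunits that these factors assemble were also measured. Of 17 nuclear subunits of complex IV tested of 18 listed, 7 rose and 1 fell in EpiLC+SA relative to EpiLC, at a median log2 fold change of 0.88, where 12.1% of all genes were higher and 15.8% lower. Cox7a1 rose by 1.56 (from 16.5 ± 7.65 to 49.8 ± 9.81 CPM, SD, n = 4), Cox7c by 1.60, Cox6b1 by 1.34 and Cox6a1 by 0.68. The lowest EpiLC values were 9.68 CPM for Cox7a1 (25 counts) and 35.2 CPM for Cox6b1 (91 counts). Neither library depth nor the higher level of genes with short transcripts in EpiLC+SA was tested for its part in these rises. The 1 that fell was Cox6b2, a testis isoform, at -1.41. Its libraries overlapped, at 111 to 615 CPM in EpiLC (median 201) and 89.3 to 122 in EpiLC+SA. With hemin added, 0 rose and 3 fell (Cox4i1, Cox6a1 and Cox7a1), where 10.5% of all genes were higher and 5.95% lower. Cox6b2 and Cox4i1 lie outside the rule for named genes and were chosen after their values were seen. Of the mitochondrially encoded subunits, mt-Co1 was 2.57 higher with SA on the log2 scale (edgeR, adjusted p = 1.23e-06), from 1220 to 3254 CPM in EpiLC to 7365 to 17890 in EpiLC+SA, and fell by 2.13 with hemin. mt-Co2 rose by 1.18 with SA, and mt-Co3 was at 0.24 and was not called.

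Of 8 tested enzymes of heme b synthesis, which supplies the substrate of COX10, Cpox rose by 1.13 with SA (edgeR, adjusted p = 0.0270) and the other 7 did not pass, where 12.1% of all genes were higher.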
